A study of Triticum turgidum subsp. durum with 36 samples.

Results

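The expression of 2 loci was followed through flag leaf ageing in tetraploid wheat, a Rubisco activase locus on chromosome arm 4BS and a carboxyl-terminal-processing protease-like locus on 7BS. They are 2 of the 80168 loci in the deposited count table. Both were picked on these same data. The 4BS locus was picked by its higher level at 12 days after anthesis (12 DAA) than at heading date (HD) in the wild type (WT), and the 7BS locus by its lower level in the double mutant gpc-a1/gpc-b2 than in WT at 12 DAA. Those contrasts are therefore given as descriptions, without a test, and so are the 6 other contrasts per locus that share a group with them. This left 11 of the 18 contrasts open to a test for each locus.

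The data set holds 36 RNA-seq libraries in 9 groups of 4 replicates. The 3 genotypes gpc-a1/gpc-b2, gpc-a1 and WT were each sampled at those 2 times and at 22 DAA, and each library comes from a single whole flag leaf of a greenhouse plant. All plants were siblings from lines backcrossed to the durum variety Kronos, and the mutants carry TILLING stop mutations induced chemically in GPC-A1 or in both GPC-A1 and GPC-B2. All groups, WT included, lack a functional GPC-B1, and all keep an intact GPC-A2, so gpc-a1 has no functional GPC1 whereas the double mutant keeps some GPC2. The GPC genes encode NAC transcription factors that advance leaf senescence and the export of nutrients from the leaf to the grain. Because the mutations are single base changes that create stop codons, counts per locus do not check the genotype labels. The paper reports that aligned reads at both genes showed the mutations in the mutant genotypes and in no WT sample. In the labels of gpc-a1 at HD, replicate 1 has a genotype field that reads wild type and a title that reads gpc-a1, and the title was followed.

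Rubisco activase is an ATP-driven chaperone of the chloroplast stroma that frees the active sites of Rubisco from bound inhibitory sugar phosphates, and carbon fixation in leaves depends on it. It is encoded in the nucleus, and in barley activase genes lie side by side. Carboxyl-terminal-processing proteases are serine proteases, and the member best known from Arabidopsis and spinach trims the precursor of a photosystem II reaction-centre protein in the thylakoid lumen. During senescence, leaves dismantle Rubisco and the photosystems and recover their nitrogen. Which member of its family the 7BS locus encodes is not given by its description.

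The 4BS locus, 4BS-ab-k71_contigs_longerthan_200_4910205:5859-9427 in the files, spans positions 5859 to 9427 of contig 4910205 (3569 bp) of the Chinese Spring survey sequence and carries the gene identifier Traes_4BS_176348978. A second locus on the same contig, from 10201 to 12695, is also described as Rubisco activase and has the same gene identifier. Only 773 bp separate the 2 loci, and whether they are 2 genes or parts of 1 gene was not tested. Another locus at 2679 to 4711, 1147 bp away on the other side, has no description in the table used here. The 7BS locus, 7BS-ab-k71_contigs_longerthan_200_3164633:602-5983, spans 602 to 5983 of contig 3164633 (5382 bp), is the only locus with counts on it, and carries the identifier Traes_7BS_462DD3C32. The deposited positions give 1 span per locus without exons, so introns and untranslated regions could not be told apart. Neighbouring spans do not overlap.

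A library held 13754124 to 48981831 counts in total (median 19377652). Both loci were among the abundant ones. The 4BS locus ranked 225th and the 7BS locus 721st of all loci by mean normalized count, which is the count divided by a median-of-ratios size factor for the library. The 4BS locus had between 815 and 26887 raw counts in a library and the 7BS locus between 685 and 11222, so counting error is small beside the spread between leaves. Descriptions were at hand for the 782 loci with the highest mean normalized counts, and the gene groups below hold only such loci. A locus was called changed when the edgeR quasi-likelihood test gave an adjusted P (Benjamini-Hochberg, over 75375 loci) no higher than 0.01.

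In every genotype the 4BS activase locus was low at HD and several times higher after anthesis. Over the 12 HD libraries it had 1150 to 3901 normalized counts (median 1883), and over the 24 later libraries 3147 to 22737 (median 10470). The ranges almost separate, since 22 of the 24 later libraries were above every HD library. The 2 exceptions were replicate 4 of WT at 22 DAA and replicate 3 of gpc-a1/gpc-b2 at 12 DAA. WT at HD and at 12 DAA picked the locus, so these pooled ranges are a description.

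In gpc-a1/gpc-b2 the 4 replicates of the 4BS locus had 1704, 2359, 1933 and 1252 normalized counts at HD, then 12962, 4788, 3885 and 11541 at 12 DAA and 10962, 6225, 7872 and 5563 at 22 DAA. In gpc-a1 they had 1807, 2433, 3220 and 1833 at HD, 4683, 9354, 10741 and 9941 at 12 DAA, and 15622, 15520, 6059 and 22737 at 22 DAA. In both mutants every leaf sampled after anthesis was above every leaf at HD. In WT the locus had 2801, 3901, 1150 and 1803 normalized counts at HD, 19317, 19106, 21241 and 10199 at 12 DAA, and 16125, 5277, 19782 and 3147 at 22 DAA. At 22 DAA the WT leaves split into replicates 1 and 3, as high as at 12 DAA, and the lower replicates 2 and 4. Replicate 4 lay within the WT range at HD, and replicate 2 was above every HD leaf.

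**Figure D1:**
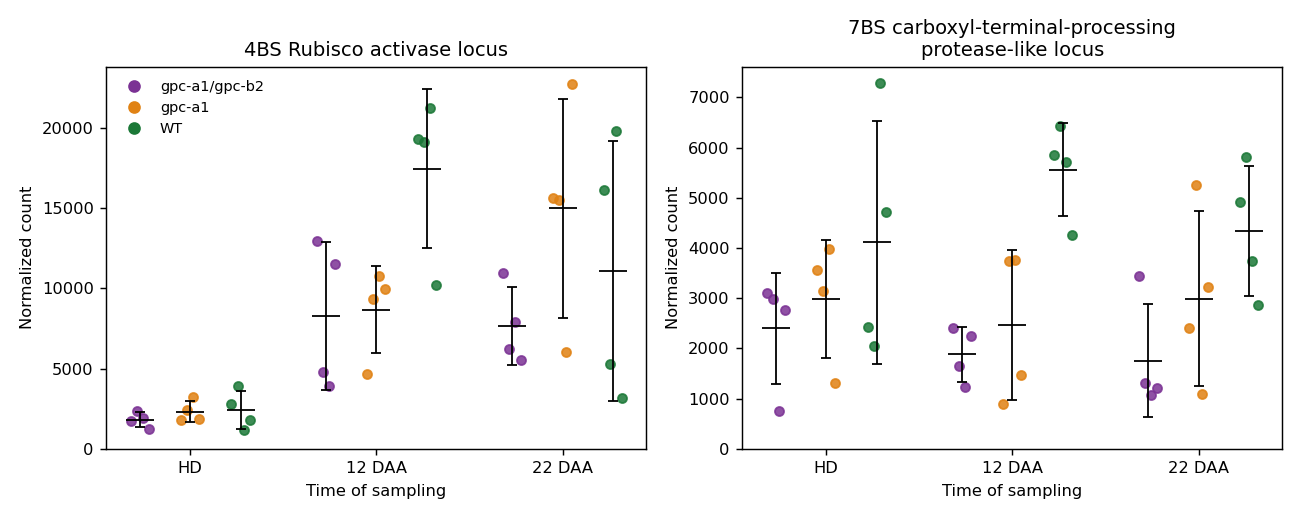
Normalized counts of the 4BS Rubisco activase locus (left) and the 7BS protease-like locus (right) by time of sampling, with 1 point per library, horizontal bars for the mean and error bars for the SD of 4 replicates. The 4BS locus stays at or below 3901 in all 12 HD libraries and reaches 22737 later, whereas the 12 gpc-a1/gpc-b2 libraries of the 7BS locus all lie at or below 3446. Some WT and gpc-a1 libraries of the 7BS locus lie there too. Each panel includes the groups that picked its locus.

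The increase over time was tested in the mutants, whose groups played no part in picking the 4BS locus. It rose in gpc-a1/gpc-b2 at 22 DAA against HD, with means of 7656 ± 2409 and 1812 ± 462 (SD, n = 4 each), by 2.07 ± 0.25 on the log2 scale (SE; edgeR adjusted P = 0.00039). In that contrast 7.87% of all loci were called. It also rose in gpc-a1/gpc-b2 at 12 DAA against HD, 8294 ± 4621 and 1812 ± 462, by 2.21 ± 0.38 (edgeR adjusted P = 0.0084; 1.58% of all loci called). In gpc-a1 it rose at 22 DAA against HD, 14984 ± 6843 and 2323 ± 664, by 2.65 ± 0.39 (edgeR adjusted P = 0.0046; 2.52% called). At 12 DAA against HD it rose in gpc-a1, 8680 ± 2725 and 2323 ± 664, by 1.90 ± 0.27 (edgeR adjusted P = 0.0067; 0.325% called).

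Among these 4 calls, the one for gpc-a1/gpc-b2 at 22 DAA was the one that held with each of the 8 libraries left out in turn (highest adjusted P 0.0027). The call for gpc-a1 at 12 DAA was lost without any 1 of 7 libraries (adjusted P 0.0115 to 0.0348) and kept without replicate 1 of gpc-a1 at 12 DAA, the lowest of its group (0.00103). The call for gpc-a1 at 22 DAA was lost without replicate 1 of that group or any 1 of the 4 HD libraries (0.0156 to 0.0264). The call for gpc-a1/gpc-b2 at 12 DAA was lost without replicate 1 or 4 of that group or any 1 of the HD libraries (0.0113 to 0.0343). Without the gpc-a1 HD library whose labels disagree, the log2 fold changes in gpc-a1 were 1.79 at 12 DAA and 2.54 at 22 DAA. With the replicate number as a block, adjusted P was 0.0394 for gpc-a1/gpc-b2 at 12 DAA (log2 fold change 2.05) and 0.0223 for gpc-a1 at 22 DAA (2.57). The fold changes themselves stayed between 1.78 and 2.91 in all these fits.

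Between 12 and 22 DAA the 4BS locus was not called in either mutant. The log2 fold change was -0.13 ± 0.38 in gpc-a1/gpc-b2 (SE; edgeR adjusted P = 0.99) and 0.79 ± 0.40 in gpc-a1 (adjusted P = 0.34). The tool called 0 of all loci (0.0%) in each of these contrasts. At an unadjusted P under 0.05 edgeR had 4621 loci in gpc-a1/gpc-b2 and 13440 in gpc-a1, and DESeq2 called 130 and 1508. If no locus differed, a fraction of about 0.05 of the 75375 loci tested would have an unadjusted P under 0.05. Such counts, here and below, are therefore not counts of changed loci. The WT contrasts are descriptions only. At 12 DAA WT averaged 17466 ± 4939 normalized counts, against 2414 ± 1202 at HD (SD, n = 4 each), a log2 fold change of 2.87 ± 0.37 (2.58% of all loci called). At 22 DAA it averaged 11083 ± 8119, which is 2.19 ± 0.59 over HD (4.63% called) and -0.67 ± 0.50 over 12 DAA (0.739% called).

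The WT mean at 22 DAA rests on 2 high and 2 low leaves, and the loci for light harvesting moved with them. The summed normalized count of 32 light-harvesting and photosystem I loci was 249157 and 167481 in WT replicates 2 and 4 at 22 DAA, and 515783 and 431242 in replicates 1 and 3. The lower pair thus had less of both. The part of leaf stage in the split was not tested. In the gpc-a1 group at 22 DAA, replicate 3 was lowest for the 4BS locus and had 430484 for the same 32 loci, second highest in its group, whose range was 227640 to 660569.

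At 12 DAA the means of the 4BS locus were 8294 ± 4621 in gpc-a1/gpc-b2 and 8680 ± 2725 in gpc-a1, against 17466 ± 4939 in WT (SD, n = 4 each). Both mutants thus averaged 0.475 and 0.497 of the WT level, with log2 fold changes of -1.07 ± 0.38 and -1.01 ± 0.27 that carry no test, because WT at 12 DAA helped to pick the locus. In these 2 contrasts 2.05% and 0.508% of all loci were called. The ranges overlapped, since replicate 4 of WT, the deepest library, had 10199 normalized counts. The mutants themselves differed by -0.06 ± 0.39 at 12 DAA (edgeR adjusted P = 0.97; 0.214% called), an interval that leaves room for a difference in either direction. The lower level in the double mutant was not particular to the 4BS locus. The 3 other loci described as Rubisco activase, on 4AL, 4BS and 5AS, had -1.16 ± 0.34, -1.08 ± 0.34 and -1.05 ± 0.32 against WT (none called). In gpc-a1 over WT they had -0.58, -0.51 and -0.58. The 4BS locus held 4.04% of the counts of all 4 activase loci in gpc-a1/gpc-b2 at 12 DAA and 3.86% in WT.

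At 22 DAA no difference between genotypes was called at the 4BS locus. It was -0.53 ± 0.51 for gpc-a1/gpc-b2 over WT (edgeR adjusted P = 0.68; 0.186% of all loci called), 0.40 ± 0.59 for gpc-a1 over WT (adjusted P = 0.95) and -0.95 ± 0.39 for gpc-a1/gpc-b2 over gpc-a1 (adjusted P = 0.87; 0.0119% called). For gpc-a1 over WT at 22 DAA edgeR called 0.0% of all loci, that is 0, with 4022 at an unadjusted P under 0.05, and DESeq2 called 128. Chance alone would put a fraction of about 0.05 of the 75375 loci tested under an unadjusted P of 0.05. At HD the log2 difference between gpc-a1/gpc-b2 and gpc-a1 was -0.36 ± 0.22 (edgeR adjusted P = 0.90; 0.00133% called). Against WT at HD it was -0.40 ± 0.34 for gpc-a1/gpc-b2 and -0.05 ± 0.34 for gpc-a1, without a test. The response over time was also compared directly between the 2 mutants. The log2 fold change of gpc-a1/gpc-b2 minus that of gpc-a1 was 0.29 ± 0.50 for 12 DAA over HD, -0.57 ± 0.46 for 22 DAA over HD and -0.86 ± 0.59 for 22 over 12 DAA, with edgeR adjusted P of 0.99, 0.95 and 0.77. These interaction tests called 1, 1 and 0 loci (0.00133%, 0.00133% and 0.0%), with 4774 at an unadjusted P under 0.05 in the last, a count that includes those expected by chance.

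**Figure D2:**
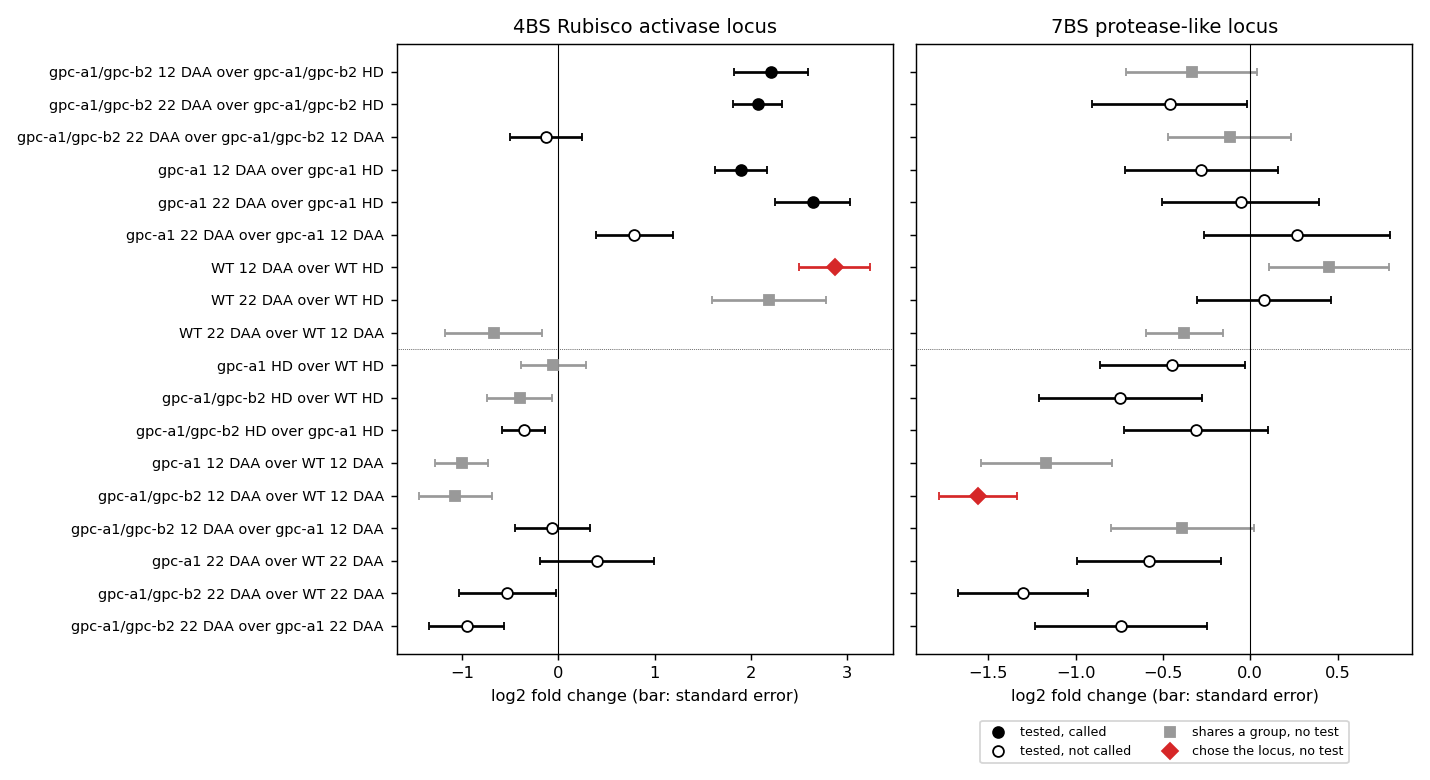
Log2 fold changes from edgeR with standard errors for 18 contrasts at each locus, drawn by whether the contrast was tested, shares a group with the contrast that picked the locus, or picked it. For the 4BS locus the 4 filled circles lie between 1.90 and 2.65, and no tested contrast of the 7BS locus was called.

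Ordered by mean, the 4BS locus was highest in WT at 12 DAA, then gpc-a1 at 22 DAA, WT at 22 DAA, gpc-a1 at 12 DAA, gpc-a1/gpc-b2 at 12 DAA and gpc-a1/gpc-b2 at 22 DAA, followed by the HD groups of WT, of gpc-a1 and of the double mutant. The highest group mean was 9.64 times the lowest. The only neighbours in this order whose replicate ranges did not overlap were gpc-a1/gpc-b2 at 22 DAA and WT at HD, so the 6 later groups cannot be ranked among themselves. The order includes the groups that picked the 4BS locus and is a description.

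The other activase loci did not share this time course. The second locus on the 4BS contig, the most abundant of the 4 described activase loci, averaged 163361, 99687 and 90083 normalized counts at HD, 12 DAA and 22 DAA in gpc-a1/gpc-b2, 182878, 147006 and 110799 in gpc-a1, and 219888, 210466 and 124086 in WT. Its mean was thus lowest at 22 DAA in each genotype. In gpc-a1/gpc-b2 its log2 fold change from HD to 22 DAA was -0.86 ± 0.25 (SE; edgeR adjusted P = 0.037). The 4AL locus (contig 3709155, 972 to 3382, Traes_4AL_B128F1907) had -0.92 ± 0.25 in the same contrast (adjusted P = 0.029), and the short 5AS locus (contig 1473229, 87 to 534), described as a precursor of the beta form, -0.89 ± 0.23 (adjusted P = 0.021). None of the 3 passed the threshold of 0.01 in this contrast or at 22 DAA against HD in gpc-a1 (adjusted P of 0.15 to 0.20) and WT (0.20 to 0.21). All 3 had negative log2 fold changes over HD at both later times in every genotype. Reads that map equally well to several of these loci were not counted, so their levels relative to each other are uncertain.

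Per kilobase of its span, the second 4BS locus had many times more reads than the 4BS locus, and the gap narrowed after anthesis. The ratio of the second to the first was 14.3 to 20.6 over the gpc-a1/gpc-b2 leaves at 22 DAA and 80.6 to 177 at HD. It was 8.01 to 17.98 over the gpc-a1 leaves at 22 DAA and 90.3 to 159 at HD, and 10.9 to 28.6 over the WT leaves at 22 DAA and 79.2 to 350 at HD. Spans include any introns, so these ratios need not hold per length of transcript.

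The same shift appears in the share of the 4BS locus among all raw counts of the 4 activase loci. In gpc-a1/gpc-b2 this share averaged 0.587% ± 0.221 in HD leaves, 4.04% ± 1.22 in 12 DAA leaves and 4.09% ± 0.717 in 22 DAA leaves (SD, n = 4). In gpc-a1 it was 0.648% ± 0.168, 2.94% ± 0.95 and 6.30% ± 1.75. In WT it was 0.564% ± 0.272, 3.86% ± 0.62 and 3.80% ± 1.61. The shares of the later leaves, 2.06% to 8.21%, did not overlap with those of the HD leaves, 0.202% to 0.895%, in any genotype. For WT this is a description only, because its HD and 12 DAA leaves picked the locus. Within each mutant, the 12 DAA and the 22 DAA leaves each differed from the HD leaves with P = 0.0286 (exact permutation test on the log2 share, two-sided), the smallest P that 4 against 4 leaves can give, or 0.0786 after adjustment over the 11 contrasts tested. The share of gpc-a1 at 22 DAA exceeded its own at 12 DAA by 1.11 on the log2 scale and that of WT at 22 DAA by 0.77, each with P = 0.0571 (exact permutation test; 0.105 adjusted), and the ranges overlapped. WT replicates 2 and 4 at 22 DAA, low for the locus itself, had shares of 2.89% and 2.41%.

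**Figure D3:**
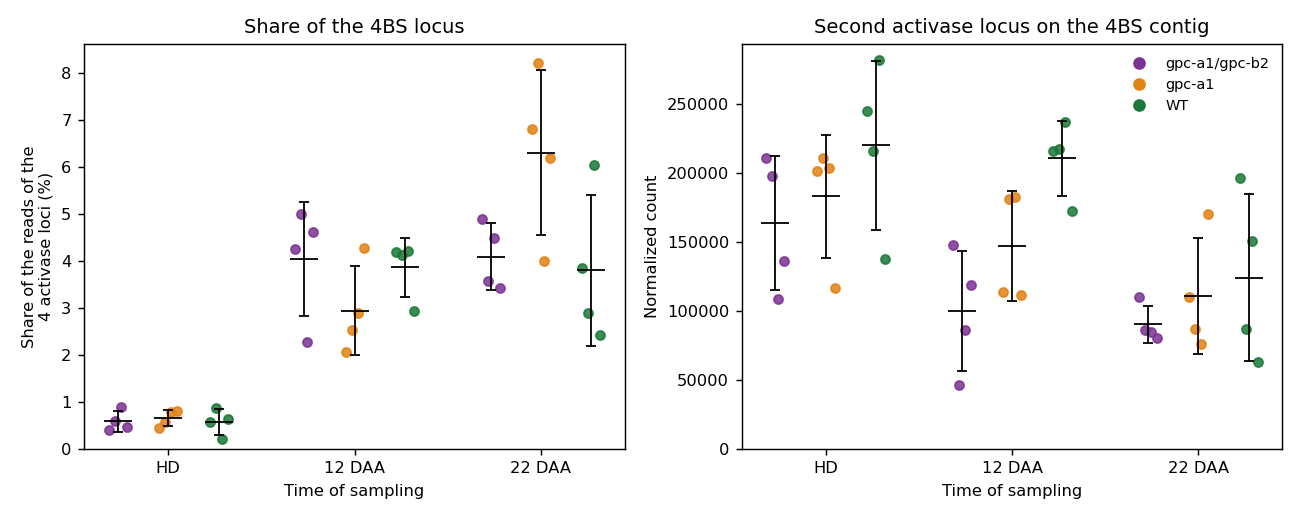
Left, share of the 4BS locus among the raw counts of the 4 described activase loci in percent. Right, normalized counts of the second activase locus on the same contig. Points are libraries, horizontal bars means and error bars the SD of 4 replicates. The share is under 1% in all 12 HD libraries and over 2% in all 24 later ones, while the second locus has its lowest mean at 22 DAA in each genotype. The WT groups at HD and 12 DAA picked the 4BS locus.

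A locus on 4AL at 4224 to 7767 of contig 3709155, noticed after its values were seen, lies 841 bp from the described activase locus of that contig and has a span of 3544 bp, so both contigs hold a short and a long locus next to each other. It has no description in the table used. Its mean normalized counts at HD, 12 DAA and 22 DAA were 588, 1238 and 1263 in gpc-a1/gpc-b2, 613, 1578 and 2655 in gpc-a1, and 680, 2351 and 1386 in WT. As at the 4BS locus, the WT mean was highest at 12 DAA and the gpc-a1 mean at 22 DAA. Over the 36 libraries its log2 normalized counts had a Pearson r of 0.85 with those of the 4BS locus, a description over leaves that differ in age and genotype. The second 4BS locus had r of -0.03, the 4AL activase locus -0.02 and the 5AS locus -0.02. The undescribed locus at 2679 to 4711 on the 4BS contig, with group means of 159 to 341 normalized counts, had r of 0.50.

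Of the 33951 loci with a mean of at least 50 normalized counts, the one most like the 4BS locus was an undescribed locus on 6AL (contig 5744523, 5637 to 10736; Pearson r = 0.90 over 36 libraries), with group means of only 34.2 to 77.1. Among described loci, those most like it were a stripe rust resistance protein on 1AL (r = 0.81), an EF-hand calcium-binding protein on 6AS (0.79), an S-adenosylmethionine decarboxylase proenzyme on 2AL (0.79), a nuclease S1 on 3B (0.79) and a beta-glucosidase 16 on 2BL (0.78). S-adenosylmethionine decarboxylase acts in polyamine synthesis, and S1-type nucleases degrade single-stranded nucleic acids. These 5 ranked 105th to 186th of the 33951 loci, behind undescribed ones, and none of the 5 is described as a photosynthesis locus.

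Described loci of Rubisco and the light reactions went the other way from the 4BS locus in the double mutant. At 22 DAA against HD in gpc-a1/gpc-b2, where 4.17% of all loci were called higher and 3.7% lower, all 10 described loci of the Rubisco small subunit fell (median log2 fold change -1.60), as did all 32 light-harvesting and photosystem I loci (-1.66) and 10 of 13 photosystem II loci (-1.22), with none called higher. Of 20 other Calvin cycle loci 15 fell (-0.97), and 2 of 3 loci of the chaperonin that binds the Rubisco large subunit (-1.28). The median over all loci tested was 0.01. The largest drop among small subunit loci, on 2BS (contig 5229108, 1864 to 3483), was to 1190 ± 553 normalized counts at 22 DAA, against 7667 ± 1622 at HD, a log2 fold change of -2.68 ± 0.33 (SE; edgeR adjusted P = 0.00041), and the smallest, on 5BL (contig 10801807, 10479 to 11898), was -1.03 ± 0.18 (adjusted P = 0.0031). The members of these lists were selected for abundance, and their calls say nothing of rarer family members.

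In WT at 22 DAA, where 2.68% of all loci were called higher and 1.95% lower than at HD, 6 of 10 small subunit loci, 17 of 32 light-harvesting and photosystem I loci, 4 of 13 photosystem II loci and 2 of 20 other Calvin cycle loci fell, with none higher, and medians of -2.15, -2.05, -1.32 and -1.07. In gpc-a1 (1.58% higher and 0.939% lower) the medians were -1.90, -1.63, -1.13 and -1.12, but only 1 light-harvesting and photosystem I locus and 1 photosystem II locus passed the edgeR test. DESeq2 called more list loci in that contrast, 95 of 142 against 8 by edgeR, and more of all loci, 8901 against 1900. Of the 3 chaperonin loci 1 fell in gpc-a1 and none was called in WT (medians -1.55 and -0.88). The 3 genotypes were not tested against each other here. Loci for chlorophyll breakdown were mixed, with 3 of 5 higher and 1 lower in WT at 22 DAA (median 1.18), 1 lower in gpc-a1/gpc-b2 (0.70) and none called in gpc-a1 (1.14). Of 18 loci with heat shock, heat stress or DnaJ in their description, which include a heat stress transcription factor a-2d on 4AS, 1 fell in gpc-a1/gpc-b2 and none was called in gpc-a1 or WT (medians -0.59, -0.31 and -0.28). Because each library is a whole leaf, fewer cells of a type and less RNA per cell cannot be told apart.

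Markers of other leaf cell types were also lower at 22 DAA than at HD. The summed normalized count of 2 lipid transfer protein loci, which mark the epidermis, was 8943 to 19717 at 22 DAA and 27639 to 35574 at HD in gpc-a1/gpc-b2, 1964 to 10588 and 20941 to 32850 in gpc-a1, and 5566 to 13410 and 28110 to 39431 in WT. The sugar transporter locus sweet13, a vascular marker, had 1028 to 1323 at 22 DAA and 3582 to 6595 at HD in gpc-a1/gpc-b2, 1094 to 1578 and 3479 to 6706 in gpc-a1, and 2301 to 3265 and 3504 to 6931 in WT. Of these 3 loci 2 were called lower in gpc-a1/gpc-b2 at 22 DAA, 1 in gpc-a1 and 1 in WT, and none was at 0. Of all loci, 3.7%, 0.939% and 1.95% were called lower in these contrasts. The part of tissue composition in the time course of the 4BS locus was not tested.

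The mean of the 7BS protease-like locus was highest in WT and lowest in the double mutant at each of the 3 times, but outside 12 DAA the leaves of each mutant overlapped with those of WT. In gpc-a1/gpc-b2 its replicates had 3110, 2989, 758 and 2757 normalized counts at HD, 2412, 1655, 1226 and 2238 at 12 DAA, and 3446, 1302, 1072 and 1216 at 22 DAA. In gpc-a1 they had 3555, 3137, 3971 and 1302 at HD, 897, 3737, 3767 and 1464 at 12 DAA, and 2405, 5253, 1085 and 3218 at 22 DAA. In WT they had 2425, 2042, 7282 and 4715 at HD, 5856, 6436, 5706 and 4257 at 12 DAA, and 4915, 5811, 3744 and 2867 at 22 DAA. The leaves of one group differed by up to 4.84-fold (gpc-a1 at 22 DAA), and WT at 12 DAA was the most even group, with a 1.51-fold range.

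At 12 DAA, the contrast that picked the locus, gpc-a1/gpc-b2 averaged 1883 ± 544 and WT 5564 ± 926 (SD, n = 4 each), a log2 fold change of -1.56 ± 0.22 and no overlap between the leaves. In gpc-a1 at 12 DAA the mean was 2466 ± 1502 and also without overlap with WT, at -1.17 ± 0.37. Between the mutants at 12 DAA it was -0.39 ± 0.41. These values have no test, since the groups picked the locus.

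At 22 DAA, with groups that had no part in the choice, gpc-a1/gpc-b2 averaged 1759 ± 1129 and WT 4334 ± 1294 (SD, n = 4 each). The log2 fold change was -1.30 ± 0.37 and was not called (edgeR adjusted P = 0.13; DESeq2 adjusted P = 0.028). In 3 of the 4 double mutant leaves the level was below every WT leaf, and replicate 1, with 3446, lay within the WT range. Without that library the log2 fold change was -1.83 and adjusted P 0.00999, and without any other library of the contrast the locus was not called (up to 0.35). For gpc-a1 over WT at 22 DAA the log2 fold change was -0.58 ± 0.41 (edgeR adjusted P = 0.90), and for gpc-a1/gpc-b2 over gpc-a1 it was -0.74 ± 0.49 (adjusted P = 0.88).

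At HD the 7BS locus had log2 fold changes of -0.74 ± 0.46 for gpc-a1/gpc-b2 over WT, -0.45 ± 0.41 for gpc-a1 over WT and -0.31 ± 0.41 for gpc-a1/gpc-b2 over gpc-a1 (SE; edgeR adjusted P of 0.996, 0.86 and 0.96). Few loci of any kind were called then. For gpc-a1/gpc-b2 over WT 0.00133% were called, and for gpc-a1 over WT 0 (0.0%), with 5543 at an unadjusted P under 0.05 by edgeR and 41 called by DESeq2. The count of 5543 includes the fraction of about 0.05 of the loci tested that chance alone would give. Standard errors of this size leave differences of 1 on the log2 scale open in each of the 3 contrasts.

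Time made no called difference to the 7BS locus in any genotype. At 22 DAA against HD the log2 fold change was -0.46 ± 0.45 in gpc-a1/gpc-b2, -0.06 ± 0.45 in gpc-a1 and 0.08 ± 0.39 in WT (SE; edgeR adjusted P of 0.54, 0.95 and 0.92). In gpc-a1 it was -0.28 ± 0.44 at 12 DAA against HD and 0.27 ± 0.53 at 22 against 12 DAA (adjusted P = 0.83 for both). The contrasts that share a picking group gave -0.34 ± 0.37 for 12 DAA over HD and -0.12 ± 0.35 for 22 over 12 DAA in gpc-a1/gpc-b2, and 0.45 ± 0.34 and -0.38 ± 0.22 in WT. Differences between genotypes in the response from HD to 22 DAA were -0.55 ± 0.66 for gpc-a1/gpc-b2 minus WT, -0.12 ± 0.65 for gpc-a1 minus WT and -0.40 ± 0.70 for gpc-a1/gpc-b2 minus gpc-a1 (edgeR adjusted P of 0.98, 0.99 and 0.97). The first of these interaction tests called 0.0212% of all loci, the second 0 (0.0%; 3679 at an unadjusted P under 0.05) and the third 0.00133%. The count of 3679 is no higher than chance alone would give, a fraction of about 0.05 of the 75375 loci tested.

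By mean, the 9 groups of the 7BS locus ran from WT at 12 DAA, 22 DAA and HD through gpc-a1 at HD, 22 DAA and 12 DAA to the double mutant at HD and its later 2 times, with the highest 3.16 times the lowest. The replicate ranges of every pair of neighbours overlapped. Over the 12 libraries of gpc-a1/gpc-b2 the level was 758 to 3446 (median 1947), and over the 12 of WT 2042 to 7282 (median 4815), so each double mutant leaf was below the WT median. This order includes the groups that picked the locus and is a description.

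A locus on 7AS (contig 4191171, 5 to 4859; 4855 bp), the A-genome arm that corresponds to 7BS, followed the 7BS locus leaf by leaf. It was the most similar of the 33951 loci, with a Pearson r of 0.99 over the 36 libraries on log2 normalized counts, and the next locus had 0.92. It has no description in the table used. Its normalized count was 0.70 to 1.01 times that of the 7BS locus in a library (median 0.83). At 12 DAA it averaged 1557 ± 479 in gpc-a1/gpc-b2 and 2070 ± 1153 in gpc-a1, against 4608 ± 808 in WT (SD, n = 4 each), and at 22 DAA 1530 ± 1124 and 2856 ± 1548, against 3646 ± 979. The leaves that stood out at the 7BS locus stood out here too. Replicate 3 of gpc-a1/gpc-b2 at HD had 563 normalized counts where its group mates had 2235 to 2725, and replicate 1 of gpc-a1/gpc-b2 at 22 DAA had 3212 where the others had 872 to 1076. As the 7AS locus was chosen for its likeness, no test is given for it.

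**Figure D4:**
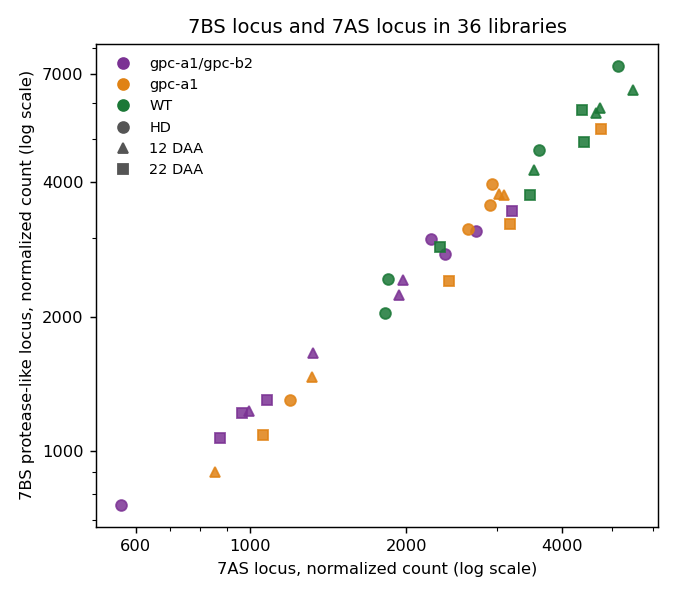
Normalized count of the 7BS protease-like locus against that of the 7AS locus in 36 libraries, both on log scales, coloured by genotype with a symbol for each time. The points lie along 1 line from replicate 3 of gpc-a1/gpc-b2 at HD (563 on 7AS and 758 on 7BS) to the highest WT leaves.

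Among described loci, those most like the 7BS locus were a predicted protein on 4AL (r = 0.87), a hypothetical protein on 2AL (0.87), a predicted protein on 7BL (0.86), a 4-hydroxy-3-methylbut-2-enyl diphosphate reductase on 4BS (0.86) and a chloroplastic DnaJ-like chaperone on 3B (0.86). The reductase is the last enzyme of the plastid pathway to isoprenoid precursors, and DnaJ proteins assist heat shock protein 70 chaperones. The described loci named here ranked 8th to 23rd of the 33951 loci. The 7BS and the 4BS locus had r of 0.22 with each other.

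Other proteases showed more than one pattern. None of 17 loci described as FtsH, Clp, presequence or related proteases or their partners, most of them plastid and 1 Clp subunit on 6AL described as mitochondrial-like, was called by edgeR at 22 DAA against HD in any genotype, with medians of -0.27 in gpc-a1/gpc-b2, -0.26 in gpc-a1 and 0.04 in WT; the 7BS locus, which is not counted among them, was not called either. Of 18 vacuolar and other proteases 8 rose and 1 fell in gpc-a1/gpc-b2 (4.17% of all loci called higher and 3.7% lower), 4 rose in gpc-a1 (1.58% higher) and 7 rose in WT (2.68% higher), with medians of 1.14, 1.38 and 1.497. The largest rise was that of a serine carboxypeptidase-like 18 locus on 5BL (contig 10923998, 6245 to 8555), with 7052 ± 1859 normalized counts at 22 DAA against 181 ± 37 at HD in gpc-a1/gpc-b2 (SD, n = 4 each; log2 fold change 5.28 ± 0.26 SE, edgeR adjusted P = 2.9e-06). At 12 DAA in gpc-a1/gpc-b2 against WT, the contrast that picked the 7BS locus, edgeR called 1 of the 142 list loci, sweet13 at -0.89, beside 2.05% of all loci. DESeq2 called 38 of the 142, beside 5161 of all 75334 loci it tested. In the same contrast the median of the 17 FtsH, Clp, presequence and related loci was -0.34, beside 0.01 over all loci tested, and the 3 other activase loci had a median of -1.08 without a call. Described photosynthesis loci were also lower there. Medians were -0.81 for light harvesting and photosystem I, -0.77 for other Calvin cycle, -0.63 for the small subunit and -0.62 for photosystem II. The median was -0.63 for chlorophyll breakdown, -0.15 for heat shock and DnaJ loci and -0.01 for vacuolar and other proteases.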

How the data were processed

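RNA-seq counts were analysed for 2 loci in 36 flag leaf libraries of tetraploid wheat. Per the methods, the authors aligned single 50 bp reads with GSNAP to the A and B contigs of the IWGSC Chinese Spring survey sequence, and counted uniquely mapped reads per transcribed locus with HTSeq. The deposited values are raw counts without normalization, and whether counting used strand is not given in the sources used here. Near-identical copies therefore lose reads. Descriptions and gene identifiers came from the part of the study's annotation table used here (782 loci), without its values. A locus was tested if 2 or more replicates of some group exceeded 3 reads (75375 of 80168).

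Each contrast was fitted on its 8 libraries with the edgeR 4.0.16 quasi-likelihood test (TMM factors, R 4.3.3) and Benjamini-Hochberg adjustment over all loci. Standard errors were derived from the log2 fold change and its F statistic (size of the change over root F). Interactions were fitted on 16 libraries. Alternatives were RLE factors, no filter, DESeq2 1.42.0, a rule that 4 tests agree (edgeR, DESeq2, a rank test and a test of means), modelled on that of the study but with DESeq2 in place of DESeq, 1 fit over 9 groups, a replicate block and leaving out each library. In data simulated for gpc-a1 at 12 DAA and HD, with 200 of 75375 loci changed, edgeR recovered 16 of 100 loci changed 2-fold and 96 of 100 changed 4-fold, with 8 false calls. Likeness was the correlation of log2(normalized count + 1). Loci named are the 2 members, the other described activase loci and loci on their contigs, the extremes of each list and the most similar loci. The members, lists and tests were chosen with earlier results of these data known.

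Per the methods, leaves with 1 replicate number shared a sequencing pool. The number entered only the fits with a replicate block, and the main fits and the permutation tests were unpaired. For same-numbered samples the deviations from their group means correlated at 0.0124 on average (26 of 144 pairs over 0.1), and for all other pairs at -0.0042 (66 of 432). Library totals were 13754124 to 48981831 counts. Figures were drawn with matplotlib 3.10.9. No sequences are shown.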

Additional observations from a re-analysis of the deposited data

Results flagged for a closer look

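Of the 18 groups of 4 libraries examined for the 2 loci, 2 had a library set apart from its group by Dixon's test, both at the 7BS locus and both in gpc-a1/gpc-b2. Chance flags about 1 group in 20. At HD, replicate 3 had 758 normalized counts, against 2757 to 3110 in the other 3 leaves, and the gap made up 0.85 of the group's range. At 22 DAA, replicate 1 had 3446, against 1072 to 1302 in the other 3, with a gap of 0.90 of the range. The cause was not tested.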

How the results depend on the processing

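Of the called increases of the 4BS locus, that of gpc-a1/gpc-b2 at 22 DAA over HD kept its call under every alternative. With all 9 groups in 1 fit, gpc-a1 at 12 DAA over HD was not called (log2 fold change 1.89, adjusted P = 0.0347). With the replicate block, gpc-a1 at 22 DAA over HD (2.57, adjusted P = 0.0223) and gpc-a1/gpc-b2 at 12 DAA over HD (2.05, adjusted P = 0.0394) were not called, and the block changed no other call at the 2 loci. By the rule of 4 tests these 2 contrasts, at 2.65 and 2.21, were not called either. Leaving out each library gave 1.78 to 2.11 for gpc-a1 at 12 DAA, 2.37 to 2.91 for gpc-a1 at 22 DAA, 1.90 to 2.44 for gpc-a1/gpc-b2 at 12 DAA, and -1.83 to -1.13 for the 7BS locus in gpc-a1/gpc-b2 over WT at 22 DAA. These call losses include fits on fewer samples, and otherwise the cause was not tested. DESeq2 called more of the 142 list loci than edgeR. At 12 DAA over HD it called 81 in gpc-a1/gpc-b2 (edgeR 16), 26 in gpc-a1 (1) and 19 in WT (3). At 22 DAA over HD it called 95 in gpc-a1 (8) and 96 in WT (41), and at 12 DAA over WT 38 in gpc-a1/gpc-b2 (1) and 2 in gpc-a1 (0). Over all loci, DESeq2 called 3815 against 1943 by edgeR for WT at 12 DAA over HD, 8303 against 3488 for WT at 22 DAA over HD, 1519 against 245 and 8901 against 1900 for gpc-a1 at 12 and 22 DAA over HD, 3898 against 1192 and 9431 against 5930 for the double mutant, and 1669 against 140 for the double mutant over WT at 22 DAA. For the mutants over WT at 12 DAA, DESeq2 called 5161 against 1548 by edgeR in gpc-a1/gpc-b2, and 1270 against 383 in gpc-a1. In 1 fit over all groups edgeR called 13021 for gpc-a1 and 8075 for WT at 22 DAA over HD, and with the replicate block 793 and 2412. RLE factors and no filter left every call at the 2 loci as it was. With TMM-scaled CPM, the highest group mean was 9.65 times the lowest for the 4BS locus and 3.20 for the 7BS locus. Ranked by Spearman correlation, 4 of the 5 described loci most like the 4BS locus and 3 of those most like the 7BS locus stayed among the top 5, and the 7AS locus stayed first. The 6AL locus, most like the 4BS locus by Pearson correlation, had rank 3 by Spearman correlation. Loci changed 2-fold were mostly missed at this depth and spread in the simulation.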
